A study of Brassica juncea with 18 samples.

Results

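Dof and SBP proteins are the members of a pair of plant-specific families of zinc finger transcription factors, and their transcripts were followed here in developing siliques of Indian mustard (*Brassica juncea*) under cold stress. A transcript of the expression table was taken as a member if its annotated domains held zf-Dof or SBP, or if its best hit was named Dof zinc finger, squamosa promoter-binding or SPL with a number. The rule found 44 of the 13342 transcripts of the table, 27 for Dof and 17 for SBP. The Dof members came from 13 unigenes and the SBP members from 7 unigenes, a unigene being the group of isoforms that the assembler assigns to 1 gene. Most members met the rule by their domain, as 26 of the 27 Dof members carried zf-Dof and 14 of the 17 SBP members carried SBP. These counts follow from the selection and are no check of the label. The exceptions were chosen by name alone: c72222_g1_i2 (named for DOF2), c65031_g1_i8 (named for SPL3), and c67511_g1_i3 and c67511_g1_i10 (named for SPL8). In the whole assembly 87 transcripts held zf-Dof and 67 held SBP, of which 29.9% and 20.9% were in the expression table, against 9.98% of all 133641 assembled transcripts.

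Dof proteins bind DNA through a single zinc finger, for which the family is named (DNA-binding with one finger), and recognise a short AAAG core. In *Arabidopsis* the cycling Dof factors (CDFs) oscillate with the circadian clock and repress CONSTANS and FT, until the F-box protein FKF1 together with GIGANTEA leads to their degradation, and other Dof factors act in seed germination, vascular tissue and guard cells. SBP proteins, called SPL in *Arabidopsis*, bind a GTAC core through a domain with paired zinc-binding sites, many of their transcripts are cleaved under the direction of the microRNA miR156, and they promote the vegetative to reproductive transition, with further roles in anthers, fruit and copper homeostasis.

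Siliques of *B. juncea* var. Varuna, from field-grown and self-pollinated plants, were collected at 6 stages, every 5 days from day 5 to day 30 after pollination (DAP, days after pollination). Excised branches stood in water, either in the field (control) or, kept under light, in a cold treatment of 6 h or 12 h at 4 °C, which gave 18 libraries, 1 for each stage and duration. The 6 stages therefore served as the replicates of cold. A p-value for cold sets the mean change against its spread between stages, with 1 estimate of spread shared by both durations. A p-value for late against early stages uses the spread among stage means. Whole siliques hold valves, seed coats and embryos, so fewer cells of a type and less RNA per cell cannot be told apart. The hour at which each library was harvested is not known from the sources read here. The numbers of mapped reads, as the study lists them, were lowest for the 12 h libraries of 10 and 5 DAP and highest for that of 25 DAP. The FPKM table holds no counts, so no counting error could be given, and values under about 1 FPKM are the least precise.

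Levels are FPKM, that is fragments scaled by transcript length and library size, with TMM normalization, and changes are differences of log2(FPKM + 1) with their standard error (SE). A transcript is said to have risen or fallen only at an adjusted p under 0.05 (limma, Benjamini-Hochberg over the 13342 transcripts). Transcripts entered the table because the authors' own test had called them in at least 1 contrast of libraries, so a call here is not independent evidence of change. Between 39 and 44 members were above 0 in each library. The libraries fell into classes by the share of reads kept after quality filtering. Control and 6 h libraries of 5 to 20 DAP kept a higher share than the 12 h libraries of these stages and than all libraries of 25 and 30 DAP. At 5 to 20 DAP the effects of 12 h and of the read class cannot be told apart.

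Most Dof members rose in the cold, in 7 of the 13 Dof unigenes. Most SBP members, like most transcripts, were not called. The share of SBP members called lower was 23.5% at each time, in 2 unigenes, above that of all transcripts, a difference that was not tested. After 6 h, 19 of the 27 Dof members were higher and 1 was lower, where 12.6% of all transcripts were higher and 9.21% lower. Of the 17 SBP members, 3 were higher and 4 lower after 6 h, and 10 were not called. After 12 h, again 19 Dof members were higher and 1 lower, against 10.2% and 11.2% of all transcripts, whereas 0 SBP members were higher and 4 lower (limma). At an unadjusted p under 0.05 in either direction there were 10 SBP members after 6 h and 6 after 12 h, against 31.1% and 32.2% of all transcripts. The median log2 change of the Dof members was 1.14 after 6 h and 1.51 after 12 h, that of the SBP members was -0.11 and -0.23, and that of all transcripts was -0.002 and -0.043. The 19 Dof members that rose belong to 7 unigenes in 4 assembly components and share reads among isoforms and near copies, so they are not 19 separate genes.

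Most of the Dof increases left no overlap between the groups. In 16 Dof members the lowest of the 6 libraries after 6 h was above the highest control, which held for 6.09% of all transcripts, and the same number was found after 12 h (4.83% of all). In 1 Dof member, c72222_g1_i2, all 6 h libraries were below all controls (1.6% of all). Among the SBP members 0 stood wholly above the controls at either time, and 2 stood wholly below them after 12 h (1.72% of all). All 19 Dof members called higher after 12 h were above their control at both 25 and 30 DAP, where control and cold libraries share a class. Of the 19, 18 were so at each of the other stages. These members were called in a fit that included the same libraries. Their direction at single stages therefore follows in part from the selection and is no check of the read class. With only 5 to 20 DAP, where control and 6 h libraries share a class, 16 Dof members were higher and 1 lower, and 2 SBP members were higher and 3 lower.

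**Figure D1:**
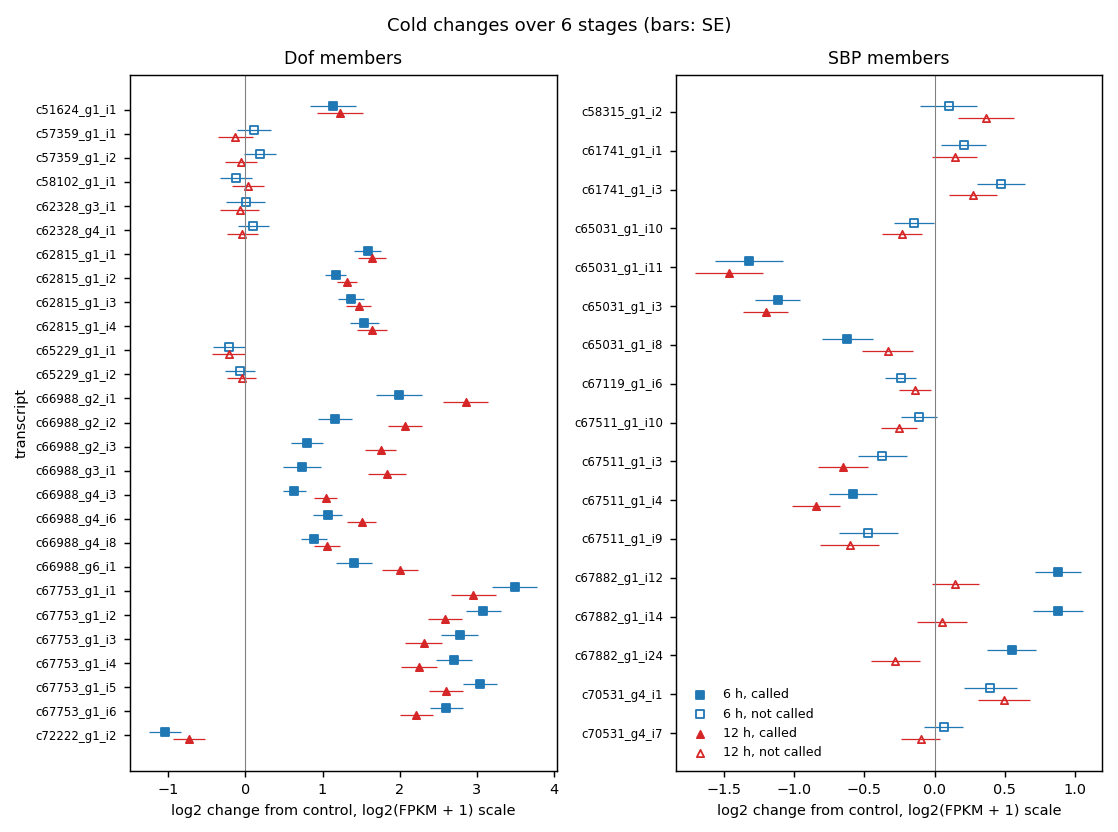
Log2 change from control of each Dof member (left) and SBP member (right) on the log2(FPKM + 1) scale, after 6 h (squares) and 12 h (triangles), with bars of 1 SE and filled symbols where the change was called. After 6 h the 6 isoforms of c67753_g1 have the largest changes among the Dof members (2.60 to 3.49), and the SBP members spread to both sides of 0.

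The largest changes after 6 h were those of c67753_g1, annotated as a putative Dof zinc finger protein, with 6 isoforms of 1398 to 1962 bp and hits of 422 to 426 amino acids. Isoform c67753_g1_i1 was measured at 0.72, 1.02 and 2.05 FPKM (lowest, median and highest) in control libraries, at 16.7, 21.0 and 32.8 FPKM after 6 h, and at 3.85, 19.8 and 24.1 FPKM after 12 h. Every cold library was above every control. The highest control was at 20 DAP, the highest cold value was at 25 DAP after 6 h, and the lowest cold value by far was the 5 DAP library after 12 h. The change was 3.49 ± 0.29 after 6 h (SE, limma adjusted p = 1.6e-06) and 2.95 ± 0.29 after 12 h (adjusted p = 8.4e-06), and 12 h was below 6 h at 6 of 6 stages without passing the test (-0.54 ± 0.29, adjusted p = 0.45).

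The other isoforms of c67753_g1 rose alike. Their changes were between 2.60 (c67753_g1_i6) and 3.08 (c67753_g1_i2) after 6 h and between 2.22 and 2.60 after 12 h, in 6 of 6 stages each. Summed over the 6 isoforms, the level was 4.43, 5.81 and 9.87 FPKM in control libraries, 69.4, 82.7 and 125.1 FPKM after 6 h, and 18.6, 79.1 and 93.7 FPKM after 12 h. The share of c67753_g1_i1 in the summed level had a median of 17.4% in control libraries and 24.7% after both 6 h and 12 h, with ranges that overlapped. That of c67753_g1_i6 was 13.8% to 16.8% in control libraries and 10.3% to 12.99% after 6 h, without overlap. These shares were not tested. The unigene carried the GO terms for the timing of the vegetative to reproductive transition, response to water deprivation and programmed cell death. At 25 and 30 DAP alone, within 1 read class, c67753_g1_i1 went from 0.83 to 32.8 and 24.1 FPKM and from 0.72 to 29.6 and 21.0 FPKM after 6 h and 12 h.

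Assembly component c66988 held a second group of cold-responsive Dof unigenes. Each of its member transcripts was higher after 12 h than after 6 h at 4 or 5 of the 6 stages. Isoform c66988_g2_i1 was at 0.19, 0.24 and 0.42 FPKM in control libraries, at 2.58, 3.87 and 7.56 FPKM after 6 h, and at 3.02, 9.13 and 18.0 FPKM after 12 h. All cold libraries stood above the controls, and 12 h exceeded 6 h at 5 of 6 stages, with 5 DAP as the exception (7.56 FPKM after 6 h and 3.02 after 12 h). It rose by 1.99 ± 0.30 after 6 h (adjusted p = 0.00026) and by 2.86 ± 0.30 after 12 h (adjusted p = 1.2e-05), the latter above the 12 h change of each c67753_g1 isoform but c67753_g1_i1. With isoforms summed, the 12 h changes of c66988_g2 and c67753_g1 were 3.20 and 3.17. This order depends on the scale, as adding 1 to the FPKM compresses changes from low control levels. Over the alternative fits listed below, the 12 h change reached 4.48 for c66988_g2_i1 and 3.72 for c67753_g1_i1.

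Transcript c66988_g3_i1, named for DOF1.3, was near 0 in control libraries (0 to 0.08 FPKM, with 3 libraries at 0). It measured 0.31, 0.69 and 1.51 FPKM after 6 h and 0.27, 3.79 and 5.01 FPKM after 12 h. The cold groups did not overlap the controls, and the 5 DAP library was the lowest at both times. DOF1.3 is counted among the cycling Dof factors of *Arabidopsis*. Its change was 0.74 ± 0.24 after 6 h (adjusted p = 0.044) and 1.83 ± 0.24 after 12 h (adjusted p = 0.00011), and it was 1.10 ± 0.24 higher after 12 h than after 6 h (adjusted p = 0.018). The call at 6 h was held by a narrow margin and was lost without any 1 of the stages from 10 to 30 DAP (adjusted p from 0.079 to 0.13), while the 12 h call was kept in each of those fits.

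Of all Dof members, 3 rose further between 6 h and 12 h, all of component c66988, where 1.29% of all transcripts did: c66988_g2_i2 by 0.91 ± 0.22 (adjusted p = 0.029), c66988_g2_i3 by 0.96 ± 0.20 (adjusted p = 0.015) and c66988_g3_i1. The levels of c66988_g2_i3 were 0.08, 0.16 and 0.22 FPKM in control libraries, 0.63, 0.99 and 1.59 FPKM after 6 h, and 1.42, 2.84 and 6.07 FPKM after 12 h. This count rested on the stages included: 0 were called without 10, 15, 20 or 30 DAP and 5 without 5 DAP. The count was also 5 when only the 5 DAP library after 12 h was left out.

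The unigenes c66988_g6 and c66988_g4 rose at both times and were not called between durations. The single transcript of c66988_g6 was well above 0 in control siliques, at 1.30, 1.89 and 4.27 FPKM, and reached 5.12, 7.57 and 10.2 FPKM after 6 h and 4.46, 12.5 and 20.5 FPKM after 12 h. Its groups did not overlap, although the 5 DAP library after 12 h (4.46 FPKM) came close to the 30 DAP control (4.27 FPKM). The change of c66988_g6_i1 was 1.41 ± 0.23 after 6 h (adjusted p = 0.00048) and 2.01 ± 0.23 after 12 h (adjusted p = 2.7e-05). The 3 members of c66988_g4 rose by 0.63 (c66988_g4_i3), 1.07 (c66988_g4_i6) and 0.89 (c66988_g4_i8) after 6 h and by 1.04, 1.51 and 1.06 after 12 h, each in 6 of 6 stages. Of these, only c66988_g4_i6 had groups without overlap, with controls of 1.26 to 2.47 FPKM and cold libraries from 2.89 FPKM upwards.

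**Figure D2:**
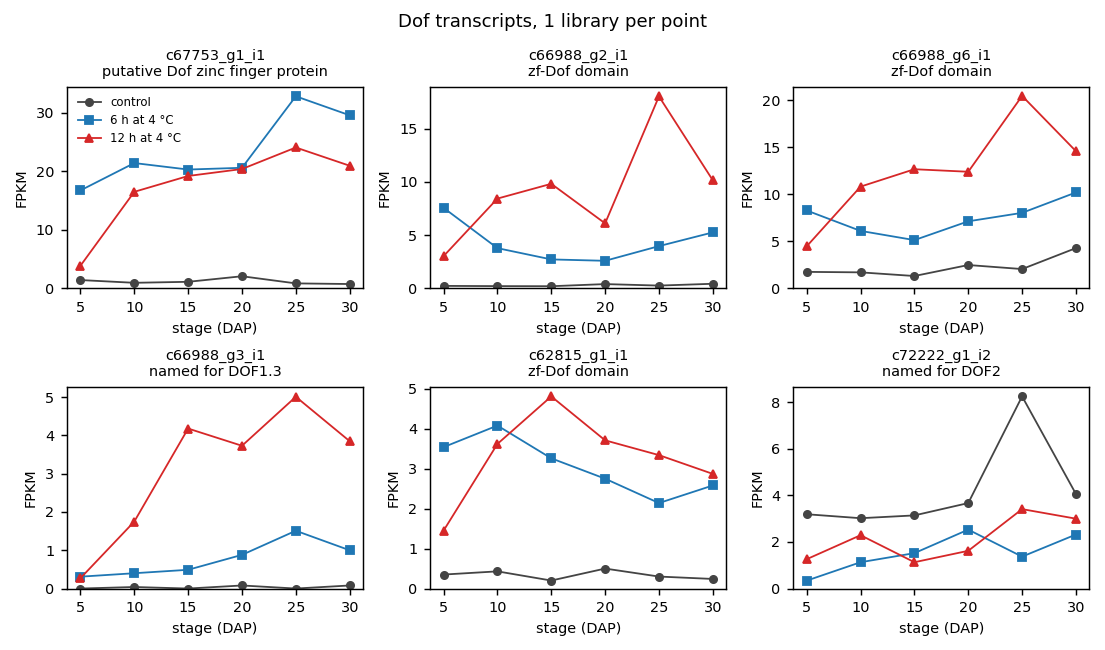
FPKM (linear axis from 0) of 6 Dof transcripts against stage in DAP, with 1 library per point, for control, 6 h and 12 h at 4 °C. Cold libraries lie above the control of their stage in the first 5 panels and below it in c72222_g1_i2, and the 5 DAP library after 12 h lies low in c67753_g1_i1 (3.85 FPKM).

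Unigene c62815_g1 was low in control siliques and rose alike at both times. Its isoform c62815_g1_i1 was at 0.20, 0.33 and 0.50 FPKM in control libraries, at 2.14, 3.01 and 4.08 FPKM after 6 h, and at 1.45, 3.48 and 4.81 FPKM after 12 h. No cold library reached down to the controls, and the lowest was again the 5 DAP library after 12 h. The rise was 1.59 ± 0.18 (adjusted p = 1.9e-05) and 1.64 ± 0.18 (adjusted p = 1.6e-05), and the other 3 isoforms rose by 1.17 to 1.54 after 6 h and by 1.32 to 1.64 after 12 h. Its annotation shares with c67753_g1 the terms for response to water deprivation and timing of the reproductive transition.

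The remaining Dof increase was that of c51624_g1_i1, at 0.51, 1.44 and 3.19 FPKM in control libraries, 3.12, 4.26 and 7.38 FPKM after 6 h, and 2.72, 4.71 and 8.67 FPKM after 12 h. It was higher at 5 of 6 stages at each time. At 5 DAP the control (3.19 FPKM) was the highest of the 3 libraries, so the groups overlapped. The change of 1.14 ± 0.30 after 6 h (adjusted p = 0.014) was not called without 15 or 30 DAP (adjusted p = 0.058 and 0.065), and that of 1.23 ± 0.30 after 12 h (adjusted p = 0.0096) was not called without 15 DAP (adjusted p = 0.056) or with the read class as a term (0.89, adjusted p = 0.31).

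The 1 Dof member that fell was c72222_g1_i2. This is a fragment of 268 bp with a hit of 36 amino acids to DOF2 and no annotated domain. Control libraries held 3.02, 3.43 and 8.25 FPKM, those after 6 h 0.34, 1.45 and 2.53 FPKM, and those after 12 h 1.13, 1.96 and 3.41 FPKM. All 6 h libraries were below all controls, and at 12 h the groups overlapped although each stage was below its own control. The control of 25 DAP, at 8.25 FPKM, stood far above the other controls. The transcript fell by 1.04 ± 0.20 on the log2 scale after 6 h (adjusted p = 0.0021) and by 0.73 ± 0.20 after 12 h (adjusted p = 0.02). The fall after 12 h was not called without 5 DAP or without 15 DAP (adjusted p up to 0.073). It was also not called with the read class as a term (-0.58, adjusted p = 0.35) or without stage as the replicate block (adjusted p = 0.13).

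The 7 Dof members that were not called at either time of cold differed widely between stages. They come from c57359_g1, c58102_g1, c62328_g3, c62328_g4 and c65229_g1, and were chosen for description after their values had been seen. Averaged over the 3 libraries of a stage, c62328_g4_i1 was at 4.65 FPKM at 10 DAP and 11.2 FPKM at 15 DAP and at or below 1.71 FPKM at the other stages. The mean of c57359_g1_i1 was highest at 20 DAP (6.06 FPKM) and 0.05 and 0.033 FPKM at 5 and 30 DAP. Transcript c62328_g3_i1, of the same assembly component as c62328_g4, had its highest mean at 20 DAP as well (13.3 FPKM) and was at 0.31 FPKM by 30 DAP. Means were thus highest at different stages in these transcripts, with 3 libraries behind each mean.

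The isoforms of c65229_g1 were highest later. Transcript c65229_g1_i2 went from 0.06 and 0.08 FPKM at 5 and 10 DAP to 2.29 FPKM at 15 DAP and to 12.3, 14.2 and 10.8 FPKM at 20, 25 and 30 DAP. Each of the 9 late libraries (9.54 to 18.3 FPKM) was above each of the 9 early ones (0 to 3.33 FPKM). It was the only Dof member called between late (20 to 30 DAP) and early (5 to 15 DAP) stages, with a change of 3.11 ± 0.46 on 3 against 3 stage means (adjusted p = 0.036), where 3.43% of all transcripts were higher late and 0.277% lower. The call was lost without 5, 10, 25 or 30 DAP (adjusted p from 0.12 to 0.20), without the 5 DAP library after 6 h (adjusted p = 0.055) and when its isoforms were summed (3.25, adjusted p = 0.075).

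Isoform c65229_g1_i1, with a best hit named Dof-type zinc finger, was on average at 16.7 FPKM at 20 DAP and at 4.41 FPKM at 30 DAP. It made up a median of 54.2% of the unigene in control libraries, with a range of 31.2% to 92.7%. The top of this range is from the 10 DAP control, where the whole unigene held only 0.55 FPKM. The latest pattern was that of c58102_g1_i1, at or below 1.33 FPKM on average up to 20 DAP, 6.65 FPKM at 25 DAP and 18.5 FPKM at 30 DAP. Its 3 libraries at 30 DAP held 16.3 to 20.3 FPKM, above all the other 15. The late against early change of 2.55 ± 0.72 was not called (adjusted p = 0.09). Transcripts of c57359_g1, c62328_g3 and c65229_g1 carried the GO terms for cotyledon development and for mucilage metabolism of the seed coat. The 35 transcripts of the embryo and seed marker list had a summed stage mean of 9.65 FPKM at 5 DAP and 1018 FPKM at 30 DAP (9 of 35 called higher late, against 3.43% of all transcripts, and 0 lower), with 9 of the 35 above 0 in every library. Of 6 green valve marker transcripts 1 was higher after 6 h (12.6% of all transcripts), and 1 was higher and 1 lower after 12 h (10.2% and 11.2% of all), and the 1 seed coat marker was not called. The part of tissue composition in the stage patterns was not tested.

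**Figure D3:**
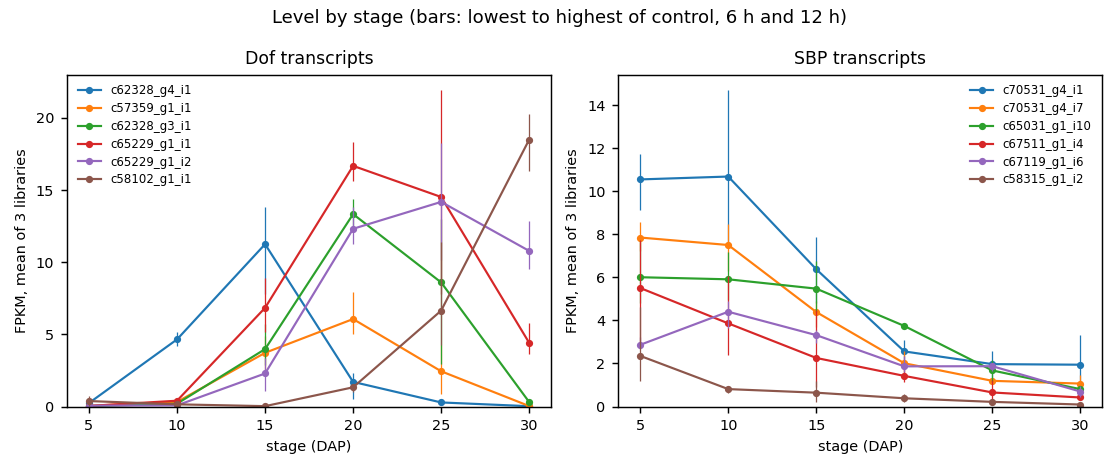
Mean FPKM over the 3 libraries of each stage (linear axis from 0), with bars from the lowest to the highest of control, 6 h and 12 h, for 6 Dof transcripts (left) and 6 SBP transcripts (right). The Dof transcripts reach their highest means at stages from 15 to 30 DAP, and the SBP transcripts shown are highest at 5 or 10 DAP.

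Genes that work with cycling Dof factors were also measured. Of 5 transcripts on the list of clock and photoperiod partners, 3 rose at both times, and all 3 were isoforms of 1 GIGANTEA unigene, which in *Arabidopsis* acts with FKF1 in CDF degradation. The GIGANTEA transcript c71462_g2_i3 was at 3.87, 7.51 and 14.1 FPKM in control libraries, 38.1, 55.4 and 62.5 FPKM after 6 h, and 25.4, 35.0 and 40.7 FPKM after 12 h (2.64 ± 0.22 after 6 h, adjusted p = 1.7e-06). All 21 transcripts of the morning and evening clock list, which are isoforms of 5 unigenes, rose after 6 h and 19 of them after 12 h, against 12.6% and 10.2% of all transcripts. Their summed level was 18.9 to 39.3 FPKM in control libraries, 374 to 514 FPKM after 6 h and 120.0 to 169.8 FPKM after 12 h. With the hour of harvest not known and 1 control per stage for both durations, the part of the time of day in the Dof and clock changes was not tested. It cannot be told apart from that of cold in this design.

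Among named transcripts outside both families, those closest in pattern to c67753_g1_i1 over the 18 libraries were pseudo-response regulator 9 transcripts, c64438_g1_i3 (Pearson r of log2 levels 0.98) and c132281_g1_i1 (0.96). These were followed by c65269_g2_i3, named B-box domain protein 28 (0.96), c30147_g1_i1, a putative beta-amylase (0.96), and c63062_g1_i1, a B-box type zinc finger protein (0.95). PRR9 is a repressor within the *Arabidopsis* clock. The 18 points share stages, cold treatment and libraries, and these correlations only describe likeness.

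The SBP family held a unigene that fell, c65031_g1, one of whose isoforms is named for SPL3, a small miR156-regulated promoter of the floral transition in *Arabidopsis*. Isoform c65031_g1_i11 was the most abundant SBP member. It was at 9.39, 11.3 and 13.7 FPKM in control libraries, 1.22, 3.85 and 9.56 FPKM after 6 h, and 0.79, 3.90 and 7.95 FPKM after 12 h. After 12 h every library was below every control, and after 6 h only 15 DAP, at 9.56 FPKM, overlapped with the lowest control (9.39 FPKM, 5 DAP). It was lowest at 30 DAP after both times, where the control held 9.70 FPKM. The fall was 1.32 in log2 after 6 h (-1.32 ± 0.24, adjusted p = 0.0012) and 1.47 after 12 h (-1.47 ± 0.24, adjusted p = 0.00061).

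Isoform c65031_g1_i3 fell in parallel, from 4.24, 5.74 and 8.39 FPKM in control libraries to 0.64, 2.35 and 5.45 FPKM after 6 h and 0.66, 2.01 and 4.00 FPKM after 12 h. It was lower in 6 of 6 stages at each time and did not overlap with the controls after 12 h (-1.20 ± 0.16, adjusted p = 0.0001). The isoform with the name SPL3, c65031_g1_i8, was lower after 6 h (-0.62 ± 0.18, adjusted p = 0.026), in 6 of 6 stages. After 12 h it was not called (-0.34 ± 0.18, adjusted p = 0.24), with 20 and 30 DAP above their controls. The remaining isoform, c65031_g1_i10, was not called (-0.15 after 6 h and -0.23 after 12 h) and went with stage, from 6.01 FPKM on average at 5 DAP to 0.81 FPKM at 30 DAP. The share of the unigene in c65031_g1_i11 had a median of 45.9% in control libraries, 37.0% after 6 h and 33.5% after 12 h, and that in c65031_g1_i10 had medians of 16.1%, 26.1% and 27.1%, all with ranges that overlapped. How the counting divided reads among these isoforms was not tested.

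The unigene named for SPL8, c67511_g1, was also lower in the cold. SPL8 acts in pollen sac formation and fertility in *Arabidopsis* and lacks a miR156 site. Its isoform c67511_g1_i4 was at 0.51, 3.21 and 7.73 FPKM in control libraries, 0.31, 1.30 and 5.77 FPKM after 6 h, and 0.23, 1.02 and 3.02 FPKM after 12 h. In each group 5 DAP was the highest, and the groups overlapped, while 6 of 6 stages were lower than their control at each time. The late against early change was -1.31 ± 0.37 and was not called (adjusted p = 0.09). The cold changes were -0.58 ± 0.17 (adjusted p = 0.025) and -0.85 ± 0.17 (adjusted p = 0.0028). The call at 6 h was lost without 10, 15 or 25 DAP (adjusted p up to 0.11), with isoforms summed (-0.60, adjusted p = 0.066) and without stage as the replicate block (adjusted p = 0.75). The call at 12 h was kept without any 1 stage and lost with the read class as a term (-0.56, adjusted p = 0.23) and without the replicate block (adjusted p = 0.41). Of its other isoforms, c67511_g1_i3 fell after 12 h (-0.65 ± 0.18, adjusted p = 0.017), while c67511_g1_i9 (-0.60) and c67511_g1_i10 (-0.25) were not called. Of the 24 transcripts of the pollen and anther marker list, 0 were called at 6 h or 12 h by limma, and 0 had an unadjusted p under 0.05. Of all transcripts 12.6% were higher and 9.21% lower at 6 h, and 10.2% and 11.2% at 12 h, with 31.1% and 32.2% at an unadjusted p under 0.05. The list was matched by name, and its summed stage mean was 22.95 FPKM at 5 DAP and 217.9 FPKM at 30 DAP. Pollen or anther content was not tested.

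**Figure D4:**
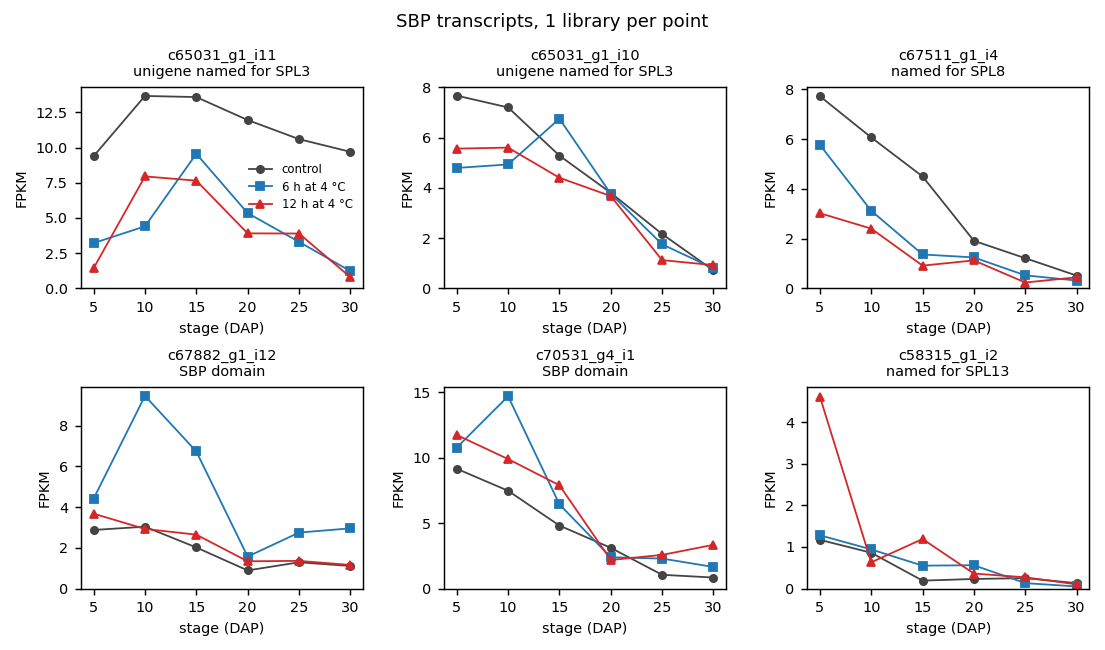
FPKM (linear axis from 0) of 6 SBP transcripts against stage in DAP, with 1 library per point, for control, 6 h and 12 h at 4 °C. Cold libraries lie below control in c65031_g1_i11 at all 6 stages, 6 h lies highest at all 6 stages in c67882_g1_i12, and c58315_g1_i2 has its highest value, 4.61 FPKM, at 5 DAP after 12 h.

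The 3 SBP increases after 6 h all belonged to unigene c67882_g1, whose transcripts have no SPL name in the annotation and hits of 315 to 362 amino acids. Transcript c67882_g1_i12 was at 0.89, 1.66 and 3.04 FPKM in control libraries, 1.57, 3.69 and 9.47 FPKM after 6 h, and 1.16, 2.01 and 3.68 FPKM after 12 h. The 6 h library was the highest at 6 of 6 stages, by most at 10 DAP (3.04 to 9.47 FPKM), and the 12 h library was again near the control. The groups overlapped, since 5 to 15 DAP had the higher controls. It rose by 0.88 ± 0.16 after 6 h (adjusted p = 0.0015), its change after 12 h was 0.15 ± 0.16 (adjusted p = 0.61), and 12 h was lower than 6 h (-0.73 ± 0.16, adjusted p = 0.021).

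Isoforms c67882_g1_i14 and c67882_g1_i24 rose by 0.88 ± 0.18 (adjusted p = 0.0027) and 0.55 ± 0.18 (adjusted p = 0.038) after 6 h. Both were lower after 12 h than after 6 h (-0.82 and -0.83). The 3 isoforms were the only SBP members called between durations, where 3.62% of all transcripts were lower after 12 h. That count was 0 without 10, 15 or 30 DAP and with the read class as a term, and the rise of c67882_g1_i24 was called in only 1 of the 6 fits that left out a stage, that without 20 DAP. Summed over the 4 isoforms of the unigene in the table, the level was 3.07, 5.34 and 9.04 FPKM in control libraries, 4.27, 12.6 and 29.9 FPKM after 6 h and 2.98, 5.20 and 9.16 FPKM after 12 h, with a drop between durations of -1.07 ± 0.19 (adjusted p = 0.0048).

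In 15 of the 17 SBP members the mean of the late stages was below that of the early stages on the log2 scale. The median log2 change of late against early stages was -0.90 for the SBP members, 0.44 for the Dof members and 0.005 for all transcripts, and rescaling the libraries by the median ratio moved the last value to -0.13. The SBP members that passed the test were the isoforms of c70531_g4, which have no SPL name. Averaged over a stage, c70531_g4_i1 held 10.6, 10.7 and 6.38 FPKM at 5, 10 and 15 DAP and 2.56, 1.97 and 1.94 FPKM at 20, 25 and 30 DAP. All 9 early libraries (4.81 to 14.7 FPKM) were above all 9 late ones (0.84 to 3.34 FPKM). The change was -1.69 ± 0.29 for c70531_g4_i1 (adjusted p = 0.040) and -1.64 ± 0.31 for c70531_g4_i7 (adjusted p = 0.044).

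Both calls of c70531_g4 were lost without 5, 10, 25 or 30 DAP (adjusted p from 0.12 to 0.22), without the 5 DAP library after 6 h (adjusted p = 0.055 and 0.059) and in control libraries alone (-1.67 and -1.62, adjusted p = 0.077 and 0.062), with sizes that stayed close. The cold changes were not called in either isoform: c70531_g4_i1 changed by 0.40 ± 0.19 after 6 h and 0.50 ± 0.19 after 12 h, and c70531_g4_i7 by 0.07 ± 0.14 and -0.10 ± 0.14. The annotation gives these transcripts terms for leaf formation, cell proliferation and anther development.

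Transcript c58315_g1_i2 is named for SPL13, a miR156-regulated factor of leaf and floral development in *Arabidopsis*, and was low throughout. It was at 0.13, 0.24 and 1.17 FPKM in control libraries, 0.05, 0.56 and 1.28 FPKM after 6 h, and 0.10, 0.50 and 4.61 FPKM after 12 h. The 3 libraries of 5 DAP were its 3 highest but for 15 DAP after 12 h (1.19 FPKM), which passed the 5 DAP control (1.17 FPKM). Neither change was called (0.10 ± 0.20, adjusted p = 0.79, and 0.36 ± 0.20, adjusted p = 0.24), and at this level few reads carry the values. The remaining SBP members, c67119_g1_i6 and the isoforms of c61741_g1, were not called either, with values of -0.24 to 0.47 after 6 h and of -0.14 to 0.28 after 12 h.

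Named transcripts closest to c58315_g1_i2 over the 18 libraries were c64943_g1_i4, of the nodulin MtN3 family (r = 0.93), c70507_g1_i3, a homeodomain-like transcriptional regulator (0.93), c69280_g5_i4, a polyprotein (0.91), c61917_g1_i9, a putative protein (0.90), and c66226_g1_i7, of the phototropic-responsive NPH3 family (0.90). The highest value of c58315_g1_i2 comes from a single library, which weighs on each of these.

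Transcripts on the lists drawn up around SPL factors, like most transcripts, were mostly not called. Of the 3 transcripts on the list of phase change and flowering genes, 1 rose after 12 h (10.2% of all transcripts), c51643_g1_i1, named for the MADS-box factor CAULIFLOWER (0.16, 0.44 and 1.13 FPKM in control libraries and 0.78, 2.17 and 4.78 FPKM after 12 h, 1.02 ± 0.34, adjusted p = 0.045). A list drawn up around SPL7 held 26 transcripts with copper protein names. It includes plastocyanin and laccase names, and its members were not checked as SPL7 targets. Of the 26, 0 rose after 6 h or 12 h (limma, against 12.6% and 10.2% of all transcripts). After 6 h 2 fell and after 12 h 3 fell (against 9.21% and 11.2% of all transcripts). At an unadjusted p under 0.05 there were 4 and 8 (31.1% and 32.2% of all). One that fell was the plastocyanin-like c143336_g1_i1 (-0.82 ± 0.20 after 6 h, adjusted p = 0.0086). Of 25 gibberellin transcripts, 4 rose and 2 fell after 6 h (12.6% and 9.21% of all transcripts), and 0 rose and 2 fell after 12 h (limma, 10.2% and 11.2% of all), with 6 at an unadjusted p under 0.05 after 12 h (32.2% of all). The counts after 6 h are near the shares over all transcripts. The gibberellin 2 oxidase 1 transcript c70061_g2_i7, for an enzyme that inactivates gibberellins, went from 0.03, 0.11 and 0.59 FPKM in control libraries to 2.07, 3.31 and 6.38 FPKM after 6 h and was at 0.04, 0.61 and 1.08 FPKM after 12 h (1.90 ± 0.18 after 6 h, adjusted p = 4e-06). Gibberellin 3 oxidase 1, which forms active gibberellins, was lower after 12 h in c66893_g1_i1 (-0.81 ± 0.20, adjusted p = 0.012).

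Side by side, the summed levels of the families went apart, although the SBP unigenes did not move together. The Dof members summed to 18.8, 48.4 and 88.6 FPKM in control libraries, 109.2, 169.7 and 212 FPKM after 6 h, and 44.2, 188.4 and 225 FPKM after 12 h, higher than control in 6 of 6 stages at each time. The SBP members summed to 22.6, 52.5 and 77.5 FPKM in control libraries, 16.8, 46.1 and 76.2 FPKM after 6 h, and 13.6, 35.0 and 59.3 FPKM after 12 h, and were lower in 5 of 6 stages after 6 h and 6 of 6 after 12 h. Control sums of SBP were higher than those of Dof from 5 to 15 DAP (72.6 against 18.8 FPKM at 5 DAP) and lower from 20 to 30 DAP (22.6 against 53.9 FPKM at 30 DAP). These sums follow their most abundant members and were not tested. Unigene c65031_g1 weighed most on the SBP sum, at 15.2, 24.9 and 34.6 FPKM in control libraries and 3.04, 12.7 and 25.7 FPKM after 6 h. After 6 h c67511_g1 and c67119_g1 were also lower in 6 of 6 stages. In contrast, c67882_g1 was higher in 6 stages, c70531_g4 and c61741_g1 in 5 each, and c58315_g1 in 4. The lower SBP sum after 6 h is therefore not a fall of the family as a whole.

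Cold responses were compared between early and late stages, with 6 h and 12 h averaged. In early stages 18 Dof members rose and 1 fell (10.6% and 7.44% of all transcripts), and 0 SBP members rose and 3 fell, with 8 SBP members at an unadjusted p under 0.05 (28.6% of all). In late stages 19 Dof members rose and 0 fell (7.7% and 5.55% of all), and 0 SBP members rose and 2 fell, with 4 at an unadjusted p under 0.05 (24.0% of all). The early count of Dof increases was 13 without 10 DAP and 14 without 15 DAP, and 2 SBP members rose in early stages without 5 DAP or without its 6 h library. The test of the difference itself called 0 members by limma, and 0 of all transcripts. At an unadjusted p under 0.05 there were 1 Dof and 1 SBP member, against 5.61% of all transcripts. For c67753_g1_i1 the late response exceeded the early one by 0.70 ± 0.50 (adjusted p = 0.98), and for c67511_g1_i4 the fall was 0.60 ± 0.25 smaller late (adjusted p = 0.84), so that no difference between phases was shown for either.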

How the data were processed

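The authors used the NGS QC Toolkit for read filtering, Trinity for assembly, Bowtie2 for mapping and RSEM for abundance. The deposited values are FPKM normalized by TMM, per the labels and the study's methods, for the 13342 transcripts called by the authors' edgeR step. The versions of these tools were not given in the sources used. Domains, best hits and GO terms come from the deposited FastAnnotator table. No sequence or genome was used.

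Values were taken to log2(FPKM + 1) and fitted over all transcripts with limma 3.58.1 in R 4.3.3, with stage as the block, which the shared stage of the control, 6 h and 12 h libraries provides. Duration nested in phase gave early and late cold effects and their difference. Late and early stages were compared on 6 stage means. The script was tested on simulated data. Counts and plots used Python 3.11.15, pandas 2.3.3, numpy 2.4.6 and matplotlib 3.10.9.

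Members and gene lists were chosen with earlier results of these data known. Named members are the called one of smallest p per unigene and comparison, the 2 given with the rule (c67753_g1_i1, c58315_g1_i2) and the 3 most abundant of each family. Others were named after their values were seen. From the lists, up to 2 called transcripts per time were named. The letters SPL in 2 CASP-like entries were not counted. Alternatives were a pseudocount of 0.1, a mean of at least 1 FPKM, median-ratio scaling, no block, summed isoforms, a trended prior, the read class, single stages or the 5 DAP 6 h library left out, and control libraries only.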

Additional observations from a re-analysis of the deposited data

Results flagged for a closer look

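Among 66 groups of 6 libraries checked on the log2(FPKM + 1) scale (22 named members in control, 6 h and 12 h libraries), 4 held a library far from the others, where chance marks about 1 group in 20. In the 12 h libraries, 5 DAP was far below the rest for c67753_g1_i1 (3.85 FPKM, next lowest 16.5), c67753_g1_i2 (3.22 FPKM, next lowest 10.9) and c67753_g1_i5 (4.26 FPKM, next lowest 12.2). These are isoforms of 1 unigene in 1 library and amount to a single departure. In the control libraries, 25 DAP was far above the rest for c72222_g1_i2 (8.25 FPKM, next highest 4.06).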

How the results depend on the processing

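Over the alternatives, the 70 called values of the named members gave 1013 further values, of which 863 kept direction and call, 150 lost the call and 0 changed sign. With only 25 and 30 DAP, 0 members of either family were called at 6 h, at 12 h or between durations, from 2 stages. In that fit c67753_g1_i1 changed by 4.18 after 6 h (limma adjusted p = 0.060) and by 3.72 after 12 h (adjusted p = 0.089). The share of all transcripts called in it is not given here, so this 0 is no result about the families. Without the replicate block, the SBP members called at 6 h were 0 higher and 2 lower, those at 12 h were 2 lower, the falling Dof member at 12 h was not called (0 lower), and the counts between durations were 1 Dof member higher and 0 SBP members lower. With the read class as a term, 0 Dof and 2 SBP members were lower at 12 h and 0 SBP members between durations. Without the 5 DAP 12 h library, 5 Dof members were higher at 12 h than at 6 h. For late against early stages, a pseudocount of 0.1 gave 2 Dof members higher and 0 SBP lower, and the trended prior and control libraries alone gave 0 SBP lower. Leaving out stages or the 5 DAP 6 h library gave 2 to 4 SBP members lower at 6 h, 0 to 1 Dof lower at 12 h, 0 to 5 Dof higher and 0 to 3 SBP lower between durations, 0 to 1 Dof lower in early cold, 1 to 2 SBP lower in late cold, and 0 to 2 Dof higher and 0 to 3 SBP lower late against early. When a stage was left out, the Dof members higher were 16 to 19 at 6 h, 18 to 19 at 12 h, 13 to 18 in early cold and 16 to 19 in late cold. The SBP members higher went from 0 to 1 at 12 h without 20 DAP or with the read class as a term, and in early cold to 2 without 5 DAP or its 6 h library. The cause of these shifts was not tested, beyond fewer libraries in the fits with fewer stages. With isoforms summed, 7 of 13 Dof unigenes rose and 1 fell at each time, and of 7 SBP unigenes 1 was higher and 1 lower at 6 h, with 0 higher and 2 lower at 12 h. One library per stage and duration, isoforms that divide reads, and levels near or below 1 FPKM limit the single values.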

Other observations

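Near the families, 10 transcripts carried names outside the wording of the rule and no annotated domain of either family. After 6 h 1 was higher, 1 was lower and 8 were not called, where 12.6% of all transcripts were higher and 9.21% lower. After 12 h 2 were higher, 1 was lower and 7 were not called, against 10.2% and 11.2% of all transcripts. Transcript c73393_g1_i1, named Dof-type zinc finger, was at 0, 0.25 and 0.35 FPKM (lowest, median and highest) in control libraries, 3.41, 4.97 and 6.08 FPKM after 6 h, and 3.63, 12.0 and 25.4 FPKM after 12 h, without overlap with the controls. It rose by 2.28 ± 0.29 after 6 h (limma adjusted p = 6.8e-05) and by 3.28 ± 0.29 after 12 h (adjusted p = 2.6e-06). A short fragment of the same name, c121621_g1_i1, was listed at 0 in all 6 control libraries and at up to 3.37 FPKM after 12 h (1.35 ± 0.25, adjusted p = 0.0017). Its change after 6 h was not called (0.54 ± 0.25, adjusted p = 0.17).

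The SPL8-named c56994_g1_i2 was lower in 6 of 6 stages at each time, from 0.90, 4.97 and 14.3 FPKM in control libraries to 0.57, 2.70 and 5.90 FPKM after 6 h and 0.37, 1.89 and 7.81 FPKM after 12 h (-0.65 ± 0.19, adjusted p = 0.028, and -0.85 ± 0.19, adjusted p = 0.006). The Dof-type c52002_g1_i1, c52669_g1_i2 and c60720_g1_i1 had their highest stage means at 30 DAP, at 8.10, 9.02 and 12.0 FPKM, and were not called between late and early stages.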
